A study of Mus musculus with 9 samples.

Results

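The unfolded protein response and the ATF4 stress response were followed in mouse cortex through 34 genes, taken by symbol for their known roles from a table of 34714 gene symbols. All 34 were in the table and all 34 had enough counts to be tested. They comprise 14 chaperones and folding enzymes of the endoplasmic reticulum (ER), 4 genes of ER-associated degradation, 7 sensors and transcription factors, 6 ATF4-driven genes of amino acid and one-carbon metabolism, and 3 further targets of ATF4 or of CHOP. Bulk RNA was sequenced from 3 groups of 3 libraries. The first group was cortex of mice with experimental autoimmune encephalomyelitis (EAE, an autoimmune disease of the central nervous system that models multiple sclerosis) treated with the gold nanocluster Au18(L-NIBC)14, the second cortex of mice with EAE and no such treatment, and the third cortex of naive mice. The sources used here do not give the strain, sex or age of the mice, how EAE was induced, the dose of the nanocluster, the day of collection or any vehicle. Brains carry the numbers 1 to 3 within a group, with no further word on whether each is a separate mouse, so p-values measure only the spread between these samples.

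When proteins fail to fold in the ER, sensors in its membrane are released from the chaperone BiP (the product of Hspa5). IRE1 (Ern1) splices the mRNA of Xbp1, ATF6 is cut to free a transcription factor, and PERK (Eif2ak3) phosphorylates the translation factor eIF2. XBP1 and cleaved ATF6 switch on chaperones and the machinery that removes misfolded proteins. Phosphorylated eIF2 slows most translation but favours that of ATF4, which drives amino acid synthesis and uptake, and through CHOP (Ddit3) can lead to cell death. Gene counts measure none of the splicing of Xbp1, the cleavage of ATF6 or the translation of Atf4.

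Promoters of genes in these pathways carry known response elements. These were searched for, from RefSeq on GRCm38.p6, in the 30 of 34 members with an entry (Manf, Hyou1, Atf6 and Cth had none). Stretches are shown only for some of the members that held a match. Sel1l and Ern1, also named in the results below, held none in the window searched. Each window ran from 250 bases before the start to 50 after it. The ER stress element, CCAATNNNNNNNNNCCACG, is bound by ATF6 and XBP1 together with NF-Y. On either strand it was found in 8 of 30 members (26.7%) and in 39 of 32851 windows of all genes (0.119%). The 8 were Calr, Canx, Creld2, Dnajc3, Hsp90b1, Hspa5, Pdia6 and Syvn1. Its second form, ATTGGNCCACG, was in Dnajb11 and Herpud1 (0.0365% of all windows), and TGACGTGG, the core of the XBP1 and ATF6 element, was in no member window (0.676% of all). TGATGNAA, the core of the C/EBP-ATF response element through which ATF4 acts, was in Asns, Chac1, Herpud1 and Trib3, 13.3% of members and 3.97% of all windows. No match overlapped another in a member. The stretches below end at the base before the start and are read on the strand of the gene, with the matched words in capitals. Calr and Chac1 hold theirs on the opposite strand, and Hsp90b1 holds 1 on each strand.
Hspa5, chr2:34772015-34772089, plus strand: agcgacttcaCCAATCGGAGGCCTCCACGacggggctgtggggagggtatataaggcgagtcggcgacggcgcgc
Calr, chr8:84846932-84847103, minus strand: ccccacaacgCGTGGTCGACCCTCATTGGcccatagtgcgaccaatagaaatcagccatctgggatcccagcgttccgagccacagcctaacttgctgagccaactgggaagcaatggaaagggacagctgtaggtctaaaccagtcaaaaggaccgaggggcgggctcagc
Canx, chr11:50325674-50325828, minus strand: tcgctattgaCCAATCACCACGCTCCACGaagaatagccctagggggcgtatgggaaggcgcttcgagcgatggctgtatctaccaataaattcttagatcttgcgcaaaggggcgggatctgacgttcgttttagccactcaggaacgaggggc
Hsp90b1, chr10:86705445-86705666, minus strand: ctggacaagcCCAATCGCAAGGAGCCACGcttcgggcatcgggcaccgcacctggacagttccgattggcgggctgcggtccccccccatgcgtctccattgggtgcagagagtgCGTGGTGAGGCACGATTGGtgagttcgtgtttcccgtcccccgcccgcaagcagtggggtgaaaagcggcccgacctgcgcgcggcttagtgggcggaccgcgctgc
Dnajc3, chr14:118937817-118937931, plus strand: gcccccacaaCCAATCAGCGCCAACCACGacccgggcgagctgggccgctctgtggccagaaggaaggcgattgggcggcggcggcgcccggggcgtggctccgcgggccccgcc
Asns, chr6:7693210-7693269, minus strand: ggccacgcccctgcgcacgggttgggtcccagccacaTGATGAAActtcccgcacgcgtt
Chac1, chr2:119351039-119351241, plus strand: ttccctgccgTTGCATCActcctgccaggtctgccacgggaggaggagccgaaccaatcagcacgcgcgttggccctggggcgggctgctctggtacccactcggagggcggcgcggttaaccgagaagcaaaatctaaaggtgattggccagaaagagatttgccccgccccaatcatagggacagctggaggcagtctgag

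Library totals were between 26972179 and 45243553 counts, and counts of the members ran from 16 (Trib3) to 14532 (Canx). The cortical markers Slc17a7 and Tbr1 were at 1152 CPM and 95.8 CPM or more in every library (CPM, counts scaled to library size with TMM factors). Composition varied within groups. In EAE replicate 1 the choroid plexus gene Ttr reached 828 CPM, against 85.3 CPM or less in the 8 other libraries, while 7 striatal markers summed to 380 to 1105 CPM in treated EAE, 277 to 1465 CPM in EAE and 263 to 1744 CPM in naive libraries. Sums of 8 myelinating oligodendrocyte markers ran from 2858 to 9414 CPM in treated EAE, 5137 to 5997 CPM in EAE and 4688 to 7143 CPM in naive libraries. Markers of other cells also moved with the groups. The 5 erythroid genes summed to 102 to 380 CPM in treated, 7.16 to 23.6 CPM in EAE and 131 to 175 CPM in naive libraries, and 10 monocyte and macrophage genes to 9.59 to 23.7 CPM in treated EAE, 23.5 to 120 CPM in EAE and 10.8 to 13.4 CPM in naive libraries. No marker of these lists was at 0 in all libraries. The part of these cells in the results below was not tested, and in bulk tissue fewer cells of a type and less RNA per cell cannot be told apart.

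No member passed the threshold, an adjusted p under 0.05 over 18644 genes in edgeR's quasi-likelihood test, in any of the 3 comparisons. In EAE against naive, where the disease effect was asked, 0 of 34 were called against 0.987% of all genes (0.735% higher and 0.252% lower), and 10 had an unadjusted p under 0.05 (16.4% of all genes). DESeq2 called 8 there (5.47% of all genes), of which 2 were higher (3.68%) and 6 lower (1.79%). In treated against untreated EAE, which asks what the nanocluster changed, 0 of 34 were called against 0.22% of all genes (0.0912% higher and 0.129% lower), and 11 had an unadjusted p under 0.05 (15.1%). DESeq2 called 6 there (3.84% of all genes), all higher (1.76% higher and 2.08% lower over all genes). In treated EAE against naive, 0 of 34 were called against 0% of all genes, 1 had an unadjusted p under 0.05 (1.71%), and DESeq2 called none (0.0109%). These comparisons share libraries, so that a gene low in the 3 EAE libraries is lower in the first and higher in the second. No member had an absolute log2 fold change above 1, the size the study's stated methods ask for. The largest was that of Chac1, at 0.71 in treated against untreated EAE.

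Another count was of members whose 3 libraries in one group all lay above, or all below, the 3 of the other. In EAE against naive these were 14 of 34 (4 higher and 10 lower), against 24% of all genes (12.2% higher and 11.8% lower). In treated against untreated EAE they were also 14, of which 13 were higher and 1 lower, against 19.2% of all genes (9.93% higher and 9.28% lower). In treated EAE against naive 1 was higher and 1 lower, against 6.25% of all genes (3.51% higher and 2.74% lower). The median log2 fold change of the members was -0.09 in EAE against naive, 0.11 in treated against untreated EAE and 0.03 in treated EAE against naive, beside -0.01, 0.00 and 0.01 over all genes tested. The 95% intervals of the members had a median half-width of 0.21 on the log2 scale, and Trib3 had the widest.

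**Figure D1:**
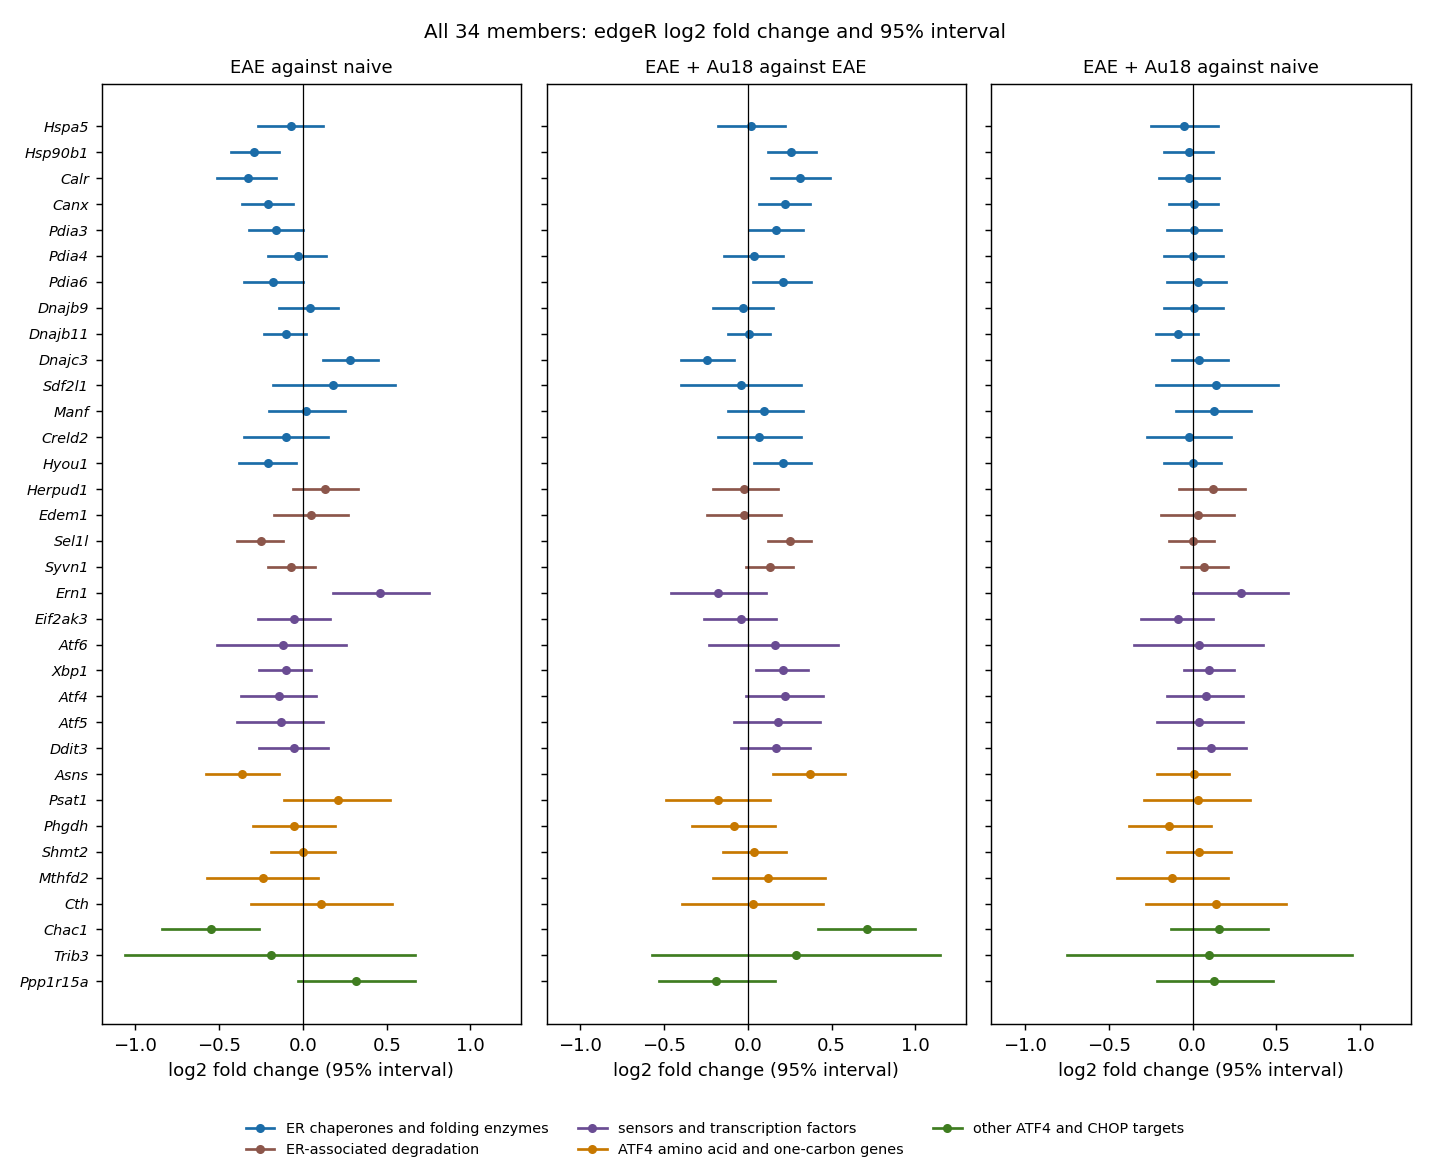
Log2 fold change (points) and 95% interval (lines) of all 34 members from the edgeR fit on 9 libraries, for EAE against naive, treated EAE (EAE + Au18) against EAE and treated EAE against naive, coloured by role. Intervals of Hsp90b1, Calr, Canx, Pdia6, Hyou1, Sel1l, Asns and Chac1 lie below 0 in the first panel. Those of the same genes lie above 0 in the second and across 0 in the third. The interval of Dnajc3 lies above 0 in the first, below 0 in the second and across 0 in the third.

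The abundant lectin and HSP90 chaperones of the ER were lower in all 3 EAE libraries than in any naive or treated library, while Hspa5 was not. Per kilobase of exon, Calr (95.3 CPM per kb in naive cortex), Hsp90b1 (71.6) and Canx (67.3) had the highest levels of the members, above Pdia3 (47.9), Hspa5 (42.9) and Atf4 (42.6). Summed over the 14 chaperones and folding enzymes, the libraries were at 1694, 1612 and 1555 CPM in treated EAE, 1417, 1452 and 1441 CPM in EAE, and 1702, 1642 and 1542 CPM in naive mice. These sums did not overlap between EAE and either of the others, but abundant genes weigh most in them. Of the 14 genes, 7 had all EAE libraries below the naive ones and 1 above. The median over the 14 of the log2 difference from the naive mean weighs genes equally. It was 0.05, -0.01 and -0.07 in treated EAE, -0.14, -0.12 and -0.07 in EAE, and 0.06, 0.02 and -0.05 in naive libraries. By this measure EAE lay below naive libraries but met the treated ones at replicate 3. The erythroid sum was low in the 3 EAE libraries.

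Calr (chromosome 8, 84842088 to 84846931) encodes calreticulin, a soluble chaperone that binds glycoproteins and calcium. Its levels were 281, 269 and 261 CPM in treated EAE, 212, 219 and 222 CPM in EAE, and 294, 285 and 244 CPM in naive libraries. Every EAE library lay below every other, with naive replicate 3 the nearest. The log2 fold change was -0.33 in EAE against naive (SE 0.08, edgeR adjusted p = 0.0775; DESeq2 adjusted p = 0.00603) and 0.31 in treated against untreated EAE (SE 0.08, edgeR adjusted p = 0.139; DESeq2 adjusted p = 0.0184). Treated against naive it was -0.02, with a 95% interval from -0.20 to 0.16.

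Hsp90b1 (chromosome 10, 86690841 to 86705444) encodes GRP94, the HSP90 of the ER. It was at 295, 283 and 276 CPM in treated EAE, 231, 232 and 248 CPM in EAE, and 302, 281 and 283 CPM in naive libraries. Again the EAE libraries did not overlap the other 6. On the log2 scale the difference was -0.29 in EAE against naive (SE 0.07, edgeR adjusted p = 0.0713; DESeq2 adjusted p = 0.00186) and 0.26 in treated against untreated EAE (SE 0.07, edgeR adjusted p = 0.131; DESeq2 adjusted p = 0.00865). The gene shares 415 exon bases with 1810014B01Rik on the opposite strand in GENCODE M21, and 84 and 133 with Gm15344 and Gm25745 on its own, so its counts are uncertain to that extent.

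Canx (chromosome 11, 50293957 to 50325673), the membrane-bound partner of calreticulin, was at 333, 319 and 300 CPM in treated EAE, 271, 283 and 265 CPM in EAE, and 325, 309 and 314 CPM in naive libraries. The 3 EAE values were the lowest of the 9. Its log2 fold change was -0.21 in EAE against naive (SE 0.07, edgeR adjusted p = 0.151; DESeq2 adjusted p = 0.0412) and 0.22 in treated against untreated EAE (SE 0.07, edgeR adjusted p = 0.173; DESeq2 adjusted p = 0.0463).

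Hspa5, Pdia3, Pdia6 and Hyou1 were picked for naming after their values were seen. Hspa5 (chromosome 2, 34772090 to 34776529), whose product BiP is the most used readout of ER stress, was at 185, 171 and 168 CPM in treated EAE, 167, 176 and 173 CPM in EAE, and 196, 191 and 157 CPM in naive libraries. Its groups overlapped. The 95% interval of its log2 fold change ran from -0.27 to 0.12 in EAE against naive and from -0.18 to 0.22 in treated against untreated EAE. Pdia3, the oxidoreductase that works with calreticulin and calnexin, Pdia6, another disulfide isomerase, and Hyou1, a large HSP70-like exchange factor for BiP, had log2 fold changes of -0.16, -0.18 and -0.21 in EAE against naive, and of 0.17, 0.21 and 0.21 in treated against untreated EAE. In these 3 genes too the EAE libraries lay below all others, and their edgeR adjusted p was 0.212 or more.

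Dnajc3 (chromosome 14, 118937932 to 118981702) went the other way. It encodes P58IPK, an ER co-chaperone of BiP that also restrains eIF2 kinases. Its levels were 59.3, 55.6 and 61.3 CPM in treated EAE, 64.6, 75.6 and 68.2 CPM in EAE, and 56.3, 56.4 and 58.4 CPM in naive libraries. All 3 EAE libraries stood above the other 6. This gave a log2 fold change of 0.28 in EAE against naive (SE 0.07, edgeR adjusted p = 0.0924; DESeq2 adjusted p = 0.0294) and one of -0.24 in treated against untreated EAE (SE 0.07, edgeR adjusted p = 0.172; DESeq2 adjusted p = 0.0908). Of the 8 members with the ER stress element in the window searched, Calr, Canx, Hsp90b1 and Pdia6 had all 3 EAE libraries below the naive ones. Dnajc3 had them above, and Hspa5, Creld2 and Syvn1 overlapped. Over all genes 11.8% lay below and 12.2% above. The part of the element in these differences was not tested.

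Of the remaining chaperones, Dnajb11, which encodes the BiP co-chaperone ERdj3, was at 45.4, 45 and 46.2 CPM in treated EAE, 44.2, 45.6 and 46.2 CPM in EAE, and 48.8, 49.3 and 47.7 CPM in naive libraries. Both EAE groups lay below the naive one, by small amounts (log2 fold change -0.09 in treated EAE and -0.10 in EAE against naive, edgeR adjusted p = 1 and 0.418). Manf, a secreted neurotrophic factor kept in the ER by BiP, was at 29.3, 29.2 and 30.0 CPM in treated EAE, 27.9, 27.1 and 27.4 CPM in EAE, and 30.8, 27.5 and 22.8 CPM in naive libraries. Treated libraries lay above EAE ones while naive libraries spanned both, and its exons share bases with Dcaf1, Rbm15b and 4930524O07Rik. Pdia4, Dnajb9, Sdf2l1 and Creld2, which are commonly induced by ER stress, had log2 fold changes between -0.10 and 0.18 in EAE against naive and between -0.04 and 0.07 in treated against untreated EAE, with groups that overlapped in each.

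**Figure D2:**
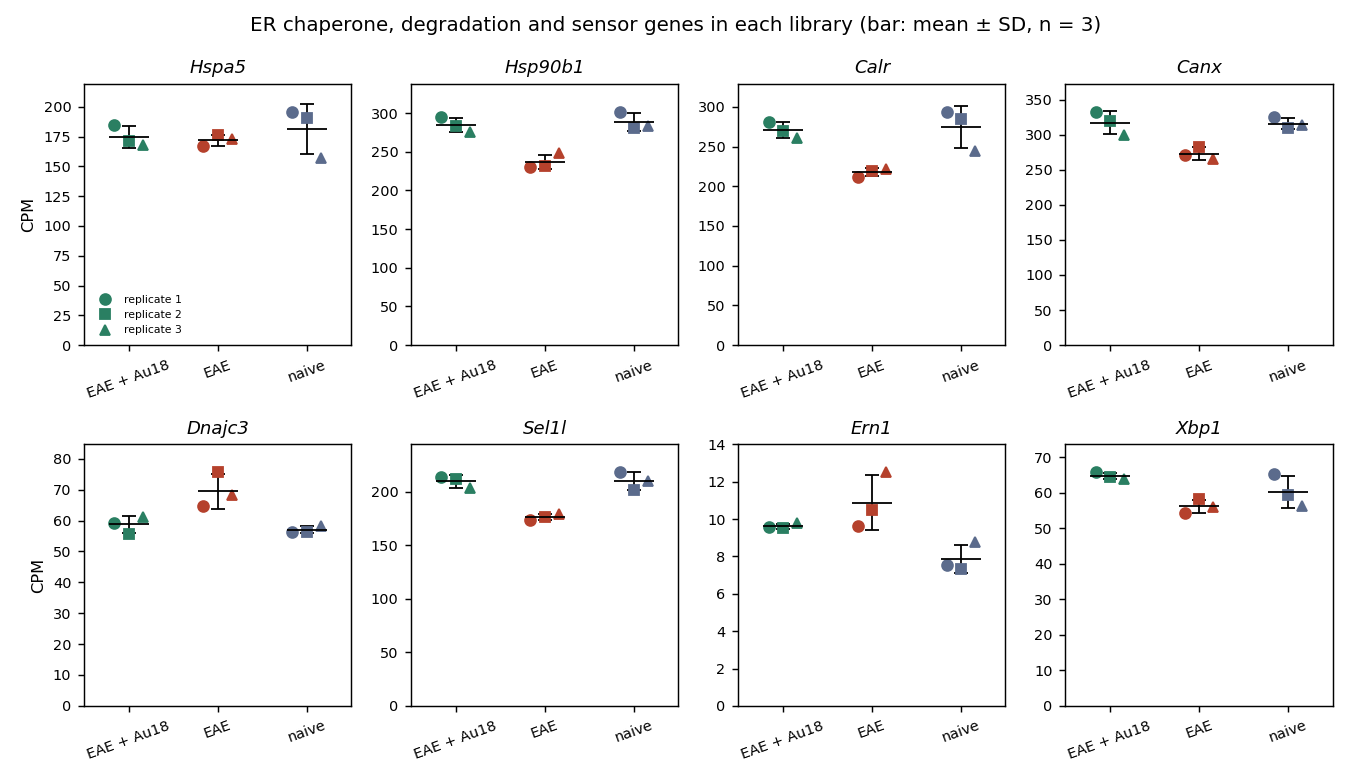
Level in CPM (vertical axis, from 0) of 8 genes of the ER branch in each library of treated EAE (EAE + Au18), EAE and naive cortex; points are libraries, shaped by replicate number, and bars are means ± SD (n = 3). EAE libraries are lowest for Hsp90b1, Calr, Canx and Sel1l and highest for Dnajc3, and the groups overlap for Hspa5.

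In ER-associated degradation, Sel1l was the 1 of 4 genes whose EAE libraries lay apart from both other groups. Against naive libraries alone this held for 1 of 4, beside 24% of all genes. Against treated libraries alone it held for 2 of 4, beside 19.2%. The share of all genes apart from both groups was not counted. Sel1l (chromosome 12, 91806043 to 91849157) encodes the adaptor of the HRD1 ubiquitin ligase that pulls misfolded proteins out of the ER. Its levels were 214, 212 and 203 CPM in treated EAE, 174, 176 and 179 CPM in EAE, and 218, 202 and 210 CPM in naive libraries. The EAE libraries lay close together and below the rest. Its log2 fold change was -0.25 in EAE against naive (SE 0.06, edgeR adjusted p = 0.0775; DESeq2 adjusted p = 0.00188) and 0.25 in treated against untreated EAE (SE 0.06, edgeR adjusted p = 0.123; DESeq2 adjusted p = 0.00427). Treated against naive it was -0.00, with a 95% interval from -0.14 to 0.13.

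Syvn1, which encodes HRD1 itself, had a log2 fold change of -0.07 in EAE against naive (95% interval -0.21 to 0.07) and 0.13 in treated against untreated EAE (-0.01 to 0.27), where the treated libraries lay above the EAE ones. Herpud1, an ER membrane protein of the same complex, was at 48.4, 54.3 and 51.3 CPM in treated EAE, 52.1, 46.6 and 56.9 CPM in EAE, and 46.3, 45.4 and 50.6 CPM in naive libraries, with overlapping groups. Edem1, which marks glycoproteins for removal, had log2 fold changes of 0.05 in EAE against naive and -0.02 in treated against untreated EAE.

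Among the sensors, Ern1 was higher in EAE libraries. Ern1 (chromosome 11, 106397620 to 106487796) was at 9.57, 9.51 and 9.77 CPM in treated EAE, 9.61, 10.5 and 12.5 CPM in EAE, and 7.53, 7.33 and 8.75 CPM in naive libraries. Libraries of both EAE groups lay above all naive ones, and EAE replicate 1 lay within the treated range. On the log2 scale the difference was 0.46 in EAE against naive (SE 0.13, edgeR adjusted p = 0.111; DESeq2 adjusted p = 0.035), -0.18 in treated against untreated EAE (95% interval -0.46 to 0.11) and 0.29 in treated EAE against naive (0.00 to 0.57, edgeR adjusted p = 1). It was the 1 member with an unadjusted p under 0.05 in that last comparison.

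Eif2ak3 (PERK) had a log2 fold change of -0.05 in EAE against naive and -0.04 in treated against untreated EAE, with 95% intervals within 0.27 of 0. Its exons share 485 bases with Gm43292 on the opposite strand. Atf6 was among the most variable members within the treated and naive groups. It was at 76.7 to 112 CPM in treated EAE, 83.7 to 91.0 CPM in EAE and 75.9 to 116 CPM in naive libraries. Its 95% interval in EAE against naive ran from -0.51 to 0.26.

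Xbp1 (chromosome 11, 5520641 to 5525993), counted over spliced and unspliced forms together, was at 65.8, 64.6 and 63.9 CPM in treated EAE, 54.4, 58.2 and 56.0 CPM in EAE, and 65.3, 59.3 and 56.4 CPM in naive libraries. Treated libraries were above all EAE libraries, and naive libraries overlapped both. Its log2 fold change was 0.21 in treated against untreated EAE (SE 0.07, edgeR adjusted p = 0.204; DESeq2 adjusted p = 0.158) and -0.10 in EAE against naive (95% interval -0.26 to 0.05).

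Atf4 mRNA, chosen for its values by library after these were seen, was at 101, 103 and 113 CPM in treated EAE, 92.6, 82.8 and 97.3 CPM in EAE, and 104, 86.0 and 111 CPM in naive libraries. Treated libraries were above EAE ones (log2 fold change 0.22, 95% interval -0.01 to 0.45), and naive libraries overlapped both. Ddit3, which encodes CHOP, was at 24.2, 27.2 and 30.8 CPM in treated EAE, 23.7, 24.3 and 25.1 CPM in EAE, and 25.8, 24.6 and 25.5 CPM in naive libraries. Treated replicates 2 and 3 lay above all other libraries, and treated replicate 1 lay among them. Ddit3 shares 68 exon bases with the methionyl-tRNA synthetase gene Mars on the opposite strand. Pdia3, Pdia4, Pdia6, Dnajb9, Syvn1, Atf5, Shmt2 and Ppp1r15a share 12 to 91 bases with a neighbour. Atf5, a related factor, had log2 fold changes of -0.13 in EAE against naive and 0.18 in treated against untreated EAE, with edgeR adjusted p of 0.521 or more.

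**Figure D3:**
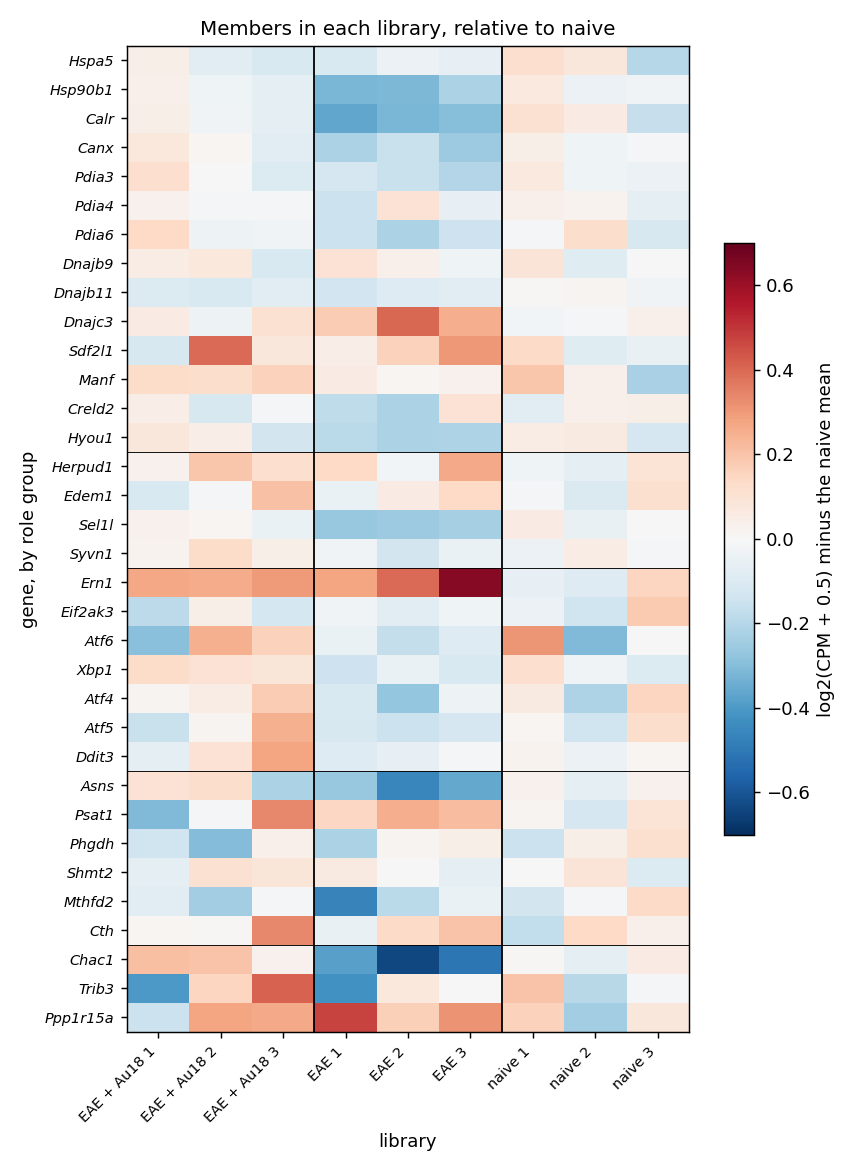
Colour gives log2(CPM + 0.5) of each member minus its mean over the 3 naive libraries, with genes in rows by role group and libraries in columns (treated EAE, EAE, naive). EAE columns are blue for Hsp90b1, Calr, Canx, Hyou1, Sel1l, Asns and Chac1 and red for Dnajc3, Ern1 and Ppp1r15a. Trib3 varies within every group, and Atf6 within the treated and naive groups.

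Of the 6 ATF4-driven genes and the 3 further targets, Asns and Chac1 had all 3 EAE libraries below every treated and naive library. Neither passed the threshold in edgeR. Against naive libraries alone, Psat1 and Ppp1r15a had all 3 EAE libraries above. Over all genes 11.8% lay below the naive libraries and 12.2% above, and the share apart from both groups was not counted. Asns (chromosome 6, 7675165 to 7693209) encodes asparagine synthetase. It was at 96.5, 98.0 and 77.1 CPM in treated EAE, 74.8, 65.5 and 70.1 CPM in EAE, and 92.1, 86.1 and 91.9 CPM in naive libraries. The EAE libraries were the lowest 3, though treated replicate 3 came close to them. This gave a log2 fold change of -0.36 in EAE against naive (SE 0.10, edgeR adjusted p = 0.104; DESeq2 adjusted p = 0.0312) and 0.37 in treated against untreated EAE (SE 0.10, edgeR adjusted p = 0.143; DESeq2 adjusted p = 0.0351). In EAE against naive it passed without treated replicate 3 (edgeR adjusted p = 0.0408).

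Chac1 (chromosome 2, 119351242 to 119354326), whose product degrades glutathione and which is switched on by ATF4 through ATF3 and CHOP, had the largest log2 fold changes of the 34 in EAE against naive and in treated against untreated EAE. Its levels were 7.99, 7.92 and 6.98 CPM in treated EAE, 5.13, 4.20 and 4.66 CPM in EAE, and 6.86, 6.49 and 7.13 CPM in naive libraries. EAE libraries lay below all others by more than the spread within any group. The log2 fold change was -0.55 in EAE against naive (SE 0.13, edgeR adjusted p = 0.0775; DESeq2 adjusted p = 0.0122) and 0.71 in treated against untreated EAE (SE 0.13, edgeR adjusted p = 0.0758; DESeq2 adjusted p = 0.000569). Treated against naive it was 0.16, with a 95% interval from -0.13 to 0.45. Asns and Chac1 both hold the C/EBP-ATF core in the stretches printed above. The core was in 4 members, and in the other carriers, Herpud1 and Trib3, the EAE libraries overlapped both other groups. The part of the core in these differences was not tested.

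For the serine and one-carbon genes, EAE libraries did not lie below both other groups. Phgdh, the first enzyme of serine synthesis, was at 66.7, 59.4 and 75.4 CPM in treated EAE, 63.0, 74.5 and 75.7 CPM in EAE, and 66.1, 75.6 and 79.6 CPM in naive libraries, with wide overlap. Psat1, the next enzyme, added for its spread, was at 90.3, 111 and 141 CPM in treated EAE, 124, 134 and 130 CPM in EAE, and 113, 103 and 120 CPM in naive libraries. EAE libraries were above naive ones (log2 fold change 0.21, edgeR adjusted p = 0.522), and treated libraries spanned both. The sum of 8 astrocyte markers was 4552, 5098 and 6512 CPM in those 3 treated libraries. That of 8 myelinating oligodendrocyte markers was 2858, 4603 and 9414 CPM in the same libraries. The part of either in the spread of Psat1 was not tested. Mitochondrial Shmt2 and Mthfd2, which pass one-carbon units from serine, and Cth, which makes cysteine, had log2 fold changes between -0.24 and 0.11 in EAE against naive and between 0.03 and 0.12 in treated against untreated EAE.

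Ppp1r15a, whose product GADD34 returns a phosphatase to eIF2 and ends the block of translation, was at 12, 16.4 and 16.2 CPM in treated EAE, 18.9, 15.1 and 16.8 CPM in EAE, and 15.1, 11.3 and 14.2 CPM in naive libraries. EAE libraries were above the naive ones, with the nearest pair alike to 3 digits (log2 fold change 0.32, edgeR adjusted p = 0.343). Trib3, a pseudokinase that restrains ATF4 and is a sensitive target of CHOP, was at 0.519 to 1.32 CPM in all 9 libraries. At 16 to 48 counts a library its 95% interval in EAE against naive ran from -1.06 to 0.67, and a change of the size seen in Chac1 was not detectable.

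**Figure D4:**
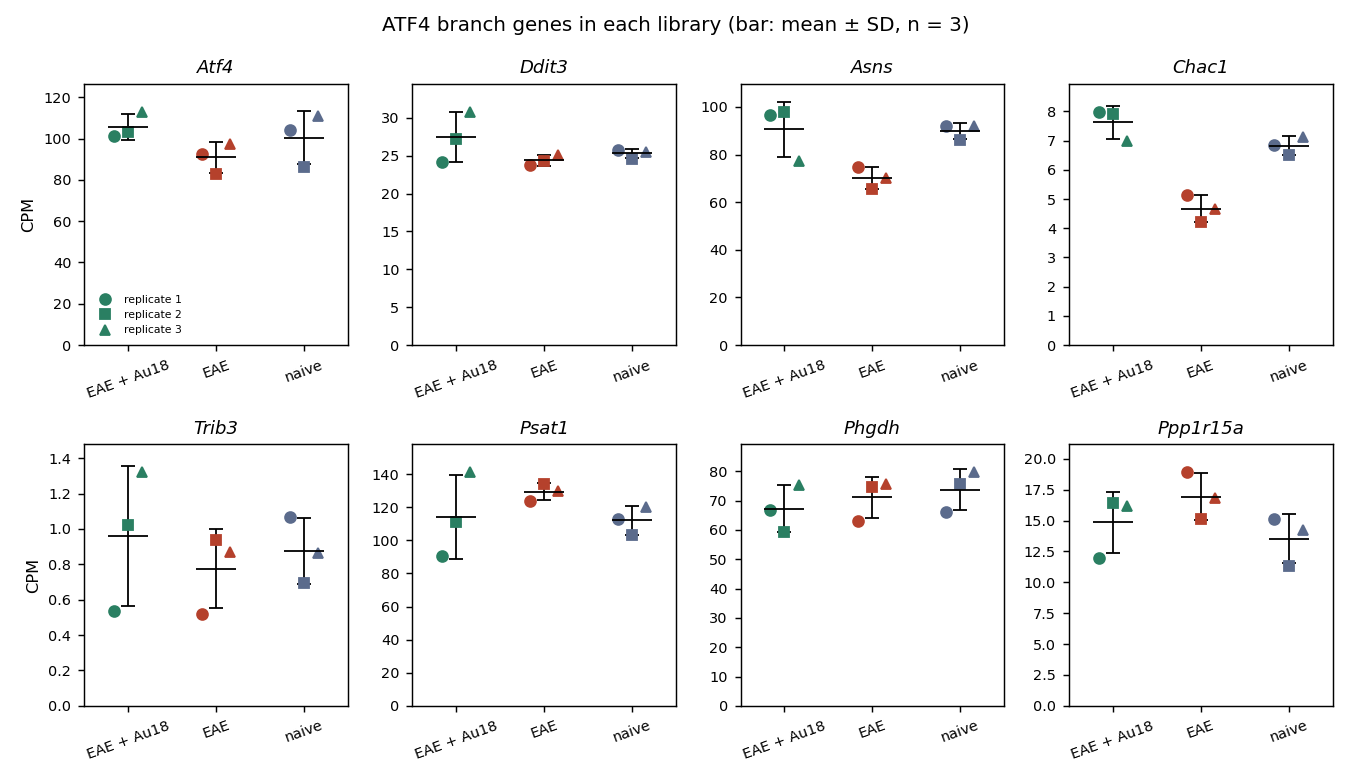
Level in CPM (vertical axis, from 0) of 8 genes of the ATF4 branch in each library of treated EAE (EAE + Au18), EAE and naive cortex; points are libraries, shaped by replicate number, and bars are means ± SD (n = 3). Asns and Chac1 are lowest in the EAE libraries, while Trib3, Phgdh and Ppp1r15a overlap between EAE and treated libraries.

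Beyond the members, 8 lists of other genes of these pathways held 191 symbols in the table, of which 188 were tested. In EAE against naive edgeR called 3 of the 188, all higher and all in the list of other ATF4 targets, beside 34 at an unadjusted p under 0.05 and 8 by DESeq2. Over all genes these shares were 0.987%, 16.4% and 5.47%, and the 34 were 18.1% of the list genes. In treated against untreated EAE it called 1, lower, beside 31 (16.5%) and 8, where the shares over all genes were 0.22%, 15.1% and 3.84%. With the replicate number as a block edgeR called 3 there. In treated EAE against naive it called 0, beside 2 at an unadjusted p under 0.05 and 0 by DESeq2. The median log2 fold change over the 188 was -0.03, 0.03 and 0.01 in those 3 comparisons.

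Of the other ATF4 targets (38 tested), 21 had a log2 fold change above 0 and 17 below 0 in EAE against naive. In treated against untreated EAE 18 were above and 20 below. At an unadjusted p under 0.05 were 14 (36.8%, against 16.4% of all genes) in the first, 10 higher and 4 lower. In the second they were 15 (39.5%, against 15.1%), 7 higher and 8 lower. Groups did not overlap for 17 genes in the first (44.7%, against 24%), 11 higher and 6 lower. In the second this held for 13 (34.2%, against 19.2%), 6 higher and 7 lower. DESeq2 called 6 and 5 of them, where the shares over all genes were 5.47% and 3.84%. The 3 genes called by edgeR were higher in EAE, where Asns and Chac1 were lower. Ddit4, an inhibitor of mTORC1 that also responds to glucocorticoids, was at 29.4, 31.3 and 31.4 CPM in treated EAE, 71.1, 80.2 and 67.8 CPM in EAE, and 25.5, 27.3 and 28.1 CPM in naive libraries. It rose in EAE against naive (log2 fold change 1.44, SE 0.08, edgeR adjusted p = 0.000179) and fell in treated against untreated EAE (-1.25, SE 0.08, edgeR adjusted p = 0.000623). Slc38a2, the SNAT2 transporter of neutral amino acids, was at 117, 128 and 148 CPM in treated EAE, 223, 185 and 211 CPM in EAE, and 108, 107 and 139 CPM in naive libraries. It rose in EAE (0.81, SE 0.13, edgeR adjusted p = 0.028). Gpt2, the mitochondrial alanine aminotransferase, was at 66.9, 71.6 and 77.4 CPM in treated EAE, 89.0, 101 and 105 CPM in EAE, and 62.4, 70.3 and 68.7 CPM in naive libraries. It rose as well (0.55, SE 0.09, edgeR adjusted p = 0.028).

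Treated against untreated EAE, Slc38a2 and Gpt2 missed the threshold (log2 fold change -0.66 and -0.45, edgeR adjusted p = 0.0851 for both) but passed with the replicate number as a block (edgeR adjusted p = 0.0496 for Slc38a2 and 0.0352 for Gpt2). With that block on only the 2 groups compared, chosen after seeing the data, neither passed (edgeR adjusted p = 0.109 for both). Their calls in EAE against naive were each lost on leaving out 1 library in 5 of 9 cases, with edgeR adjusted p up to 0.126 for Slc38a2 and 0.123 for Gpt2. For Slc38a2 these were treated replicate 2, EAE replicates 2 and 3 and naive replicates 1 and 2, and for Gpt2 EAE replicates 2 and 3 and naive replicates 1, 2 and 3. Ddit4 passed in all 17 alternatives in EAE against naive and in treated against untreated EAE.

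Cytosolic aminoacyl-tRNA synthetases, which load amino acids onto tRNA and many of which ATF4 drives, had no member called in edgeR. In EAE against naive 18 of 20 had a log2 fold change below 0 (median -0.09). At an unadjusted p under 0.05 were 5 of 20 (25%, against 16.4% of all genes), all lower, and DESeq2 called 0. In 7 of 20 the EAE libraries lay below all naive ones, and in none above (11.8% and 12.2% of all genes). In treated against untreated EAE 18 were above 0 (median 0.11), 9 had treated libraries above all EAE ones and 0 below (9.93% and 9.28% of all genes), and DESeq2 called 1, Wars (3.84% of all genes). Wars was at 110, 107 and 92.5 CPM in treated EAE, 83.3, 84.0 and 85.4 CPM in EAE, and 104, 95.4 and 95.5 CPM in naive libraries. Its log2 fold change was 0.29 in treated against untreated EAE (SE 0.08, edgeR adjusted p = 0.143; DESeq2 adjusted p = 0.0403). Gars had a log2 fold change of -0.26 in EAE against naive (edgeR adjusted p = 0.152), and Mars1 one of 0.23 in treated against untreated EAE (edgeR adjusted p = 0.164).

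Other ER chaperones and oxidative folding genes (30 tested) had medians of -0.02 in EAE against naive and 0.03 in treated against untreated EAE. Of them, 0 were called by edgeR or DESeq2. At an unadjusted p under 0.05 were 4 in the first comparison (13.3%, against 16.4% of all genes) and 3 in the second (10%, against 15.1%). The smallest p belonged to Txndc11, a thioredoxin-like protein, in the first (log2 fold change 0.23, edgeR adjusted p = 0.195) and to Cnpy3, a chaperone of Toll-like receptors, in the second (0.21, edgeR adjusted p = 0.219, against -0.20 in EAE against naive). Pdia2, at 0.854 CPM or less in every library, had a log2 fold change of 0.82 in treated against untreated EAE (SE 0.34, edgeR adjusted p = 0.305). Other degradation genes (29 tested) had medians of -0.01 in both comparisons and 0 called by edgeR or DESeq2. In each comparison 2 were at an unadjusted p under 0.05 (6.9%, against 16.4% and 15.1% of all genes). Nploc4, a cofactor of the segregase p97, had log2 fold changes of 0.15 in EAE against naive and -0.15 in treated against untreated EAE (edgeR adjusted p = 0.204 and 0.251). Derl3, an ER stress-induced derlin at 1.7 CPM or less, had one of -0.86 in EAE against naive (edgeR adjusted p = 0.221), and Sel1l3 one of 0.48 in treated against untreated EAE (edgeR adjusted p = 0.303).

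In the translocon and signal peptidase list (24 tested, medians -0.02 and 0.05) edgeR called none. DESeq2 called Spcs3 lower in EAE against naive (log2 fold change -0.27, edgeR adjusted p = 0.0765). It called Sec63 lower in treated against untreated EAE (-0.22, edgeR adjusted p = 0.156). Each comparison had 3 genes at an unadjusted p under 0.05 (12.5%, against 16.4% and 15.1% of all genes). Spcs3, a signal peptidase subunit, was at 89.2, 90.4 and 90.0 CPM in treated EAE, 78.3, 74.9 and 79.2 CPM in EAE, and 100, 89.0 and 90.9 CPM in naive libraries. Sec63, which recruits BiP to the translocon, was at 94.5, 91.2 and 97.8 CPM in treated EAE, 115, 108 and 108 CPM in EAE, and 96.4, 94.5 and 101 CPM in naive libraries. The EAE groups of both genes stood apart from the other 6 libraries, on opposite sides.

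Other regulators of the unfolded protein response (18 tested) and the eIF2 kinases with eIF2 and eIF2B (17 tested) had medians between -0.01 and 0.02 in both comparisons, with 0 called by either tool. At an unadjusted p under 0.05 were 1 and 4 of them in EAE against naive (5.56% and 23.5%, against 16.4% of all genes). In treated against untreated EAE it was 1 of each (5.56% and 5.88%, against 15.1%). Ptpn1, a phosphatase of the ER membrane, had a log2 fold change of 0.29 in EAE against naive (edgeR adjusted p = 0.126), Eif2ak1, the haem-regulated eIF2 kinase, one of 0.15 there (edgeR adjusted p = 0.237), and Eif2b4, an eIF2B subunit, one of 0.21 (edgeR adjusted p = 0.254). In treated against untreated EAE, Mbtps2, the site-2 protease that frees ATF6, had one of 0.26 (edgeR adjusted p = 0.247), Atf6b one of 0.12, Eif2s1, the phosphorylated subunit of eIF2, one of 0.16, and Dele1, which relays mitochondrial stress to the haem-regulated kinase, one of 0.16 (edgeR adjusted p of 0.302 or more for these 3).

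The mitochondrial unfolded protein response (12 tested, medians -0.05 and 0.04) had 0 called in edgeR. In each comparison 1 gene was at an unadjusted p under 0.05 (8.33%, against 16.4% and 15.1% of all genes) and was called by DESeq2. That gene was Spg7, a subunit of the inner-membrane m-AAA protease, at 60.4, 65.2 and 72.2 CPM in treated EAE, 82.3, 86.0 and 80.4 CPM in EAE, and 66.4, 68.0 and 64.8 CPM in naive libraries. Its EAE libraries were above all others (log2 fold change 0.32, edgeR adjusted p = 0.0713, DESeq2 adjusted p = 0.00742). In treated against untreated EAE its log2 fold change was -0.33 (edgeR adjusted p = 0.105, DESeq2 adjusted p = 0.0068). Hspd1, the mitochondrial chaperonin, had one of -0.19 in EAE against naive (edgeR adjusted p = 0.315), and Htra2, a protease, one of 0.15 in treated against untreated EAE (edgeR adjusted p = 0.342).

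**Figure D5:**
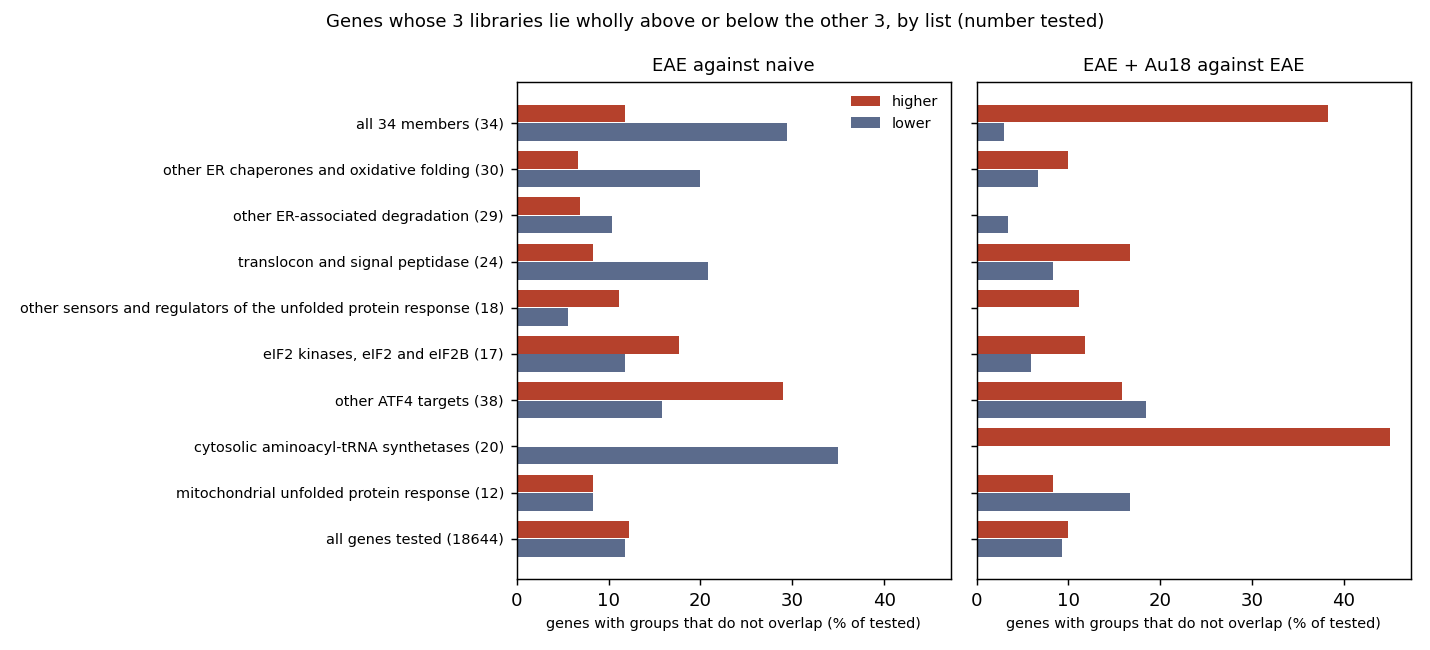
Share of tested genes (horizontal axis, %) in each list whose 3 libraries lay wholly above (higher) or below (lower) the 3 of the other group, in EAE against naive (left) and treated EAE against EAE (right); numbers tested are in brackets, and the last pair of bars is all 18644 genes. In EAE against naive more genes were lower than higher among the members (10 against 4) and the aminoacyl-tRNA synthetases (7 against 0). The same held for other ER chaperones (6 against 2), the translocon list (5 against 2) and other degradation genes (3 against 2). More were higher than lower among other ATF4 targets (11 against 6), the eIF2 list (3 against 2) and other regulators (2 against 1). The mitochondrial list had 1 of each. Over all genes 12.2% were higher and 11.8% lower. Both panels use the same 3 EAE libraries.

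In treated EAE against naive the 8 members with the smallest p in EAE against naive had 95% intervals that included 0, except Ern1. The half-width of the interval was under 0.25 on the log2 scale for 24 of 34 members. A p that missed the threshold does not show that levels in treated and naive cortex were alike.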

How the data were processed

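RNA of 9 mouse cortex libraries was analysed from 1 table. The authors deposited raw counts of 34714 gene symbols, 7089 of them at 0 in all 9 libraries. The design text of the series names FastQC for quality control, fastp for trimming, Hisat2 for alignment to the genome and bowtie2 for quantification. FastQC 0.11.8 and mm10 (GRCm38) stand in the submitters' processing notes. Neither names an annotation or a strand setting, so counts of genes with shared exon bases are uncertain. A further 9 columns in that deposited file match no sample given here and were left out. The value 2 occurred 3.8 to 4.43 times as often as the value 1 in a library, so counts may not be independent fragments; the cause was not tested.

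The deposited counts were tested with edgeR 4.0.16 in R 4.3.3 (TMM factors, filterByExpr, robust glmQLFit, glmQLFTest; group as the only factor over 9 libraries, 6 residual degrees of freedom) and adjusted by Benjamini and Hochberg over 18644 genes. The standard error is the absolute log2 fold change over the square root of F. DESeq2 1.42.0 was an alternative. Within groups no library was a copy of another (chi-square per degree of freedom 16.7 or more). The fit was also run on simulated counts whose changes were larger than any seen in the members. That run does not show how well changes of the members' size are detected.

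Deviations from group means of same-numbered treated and EAE libraries had correlations of 0.17, 0.24 and 0.24. Correlations were 0.05, 0.11 and 0.36 for EAE and naive libraries, and -0.25, -0.12 and 0.2 for treated and naive ones. Of the 9 libraries, 5 correlated best with one of their own number in another group. The labels state no pairing. The main fit used group alone, and the replicate number entered only as a block among the alternatives.

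The members and lists were chosen with earlier results of these data known. Values by library are given for the 8 members with the smallest p in each comparison and for any called gene, and of each other list for up to 2 genes with the smallest p in each of the first 2 comparisons. Other names were chosen after their values were seen. Exon overlaps and lengths are from GENCODE M21, positions from RefSeq for GRCm38.p6.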

Additional observations from a re-analysis of the deposited data

How the results depend on the processing

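Over 17 alternatives for each result no direction of a gene named by the rule turned. DESeq2 called 8 members in EAE against naive and 6 in treated against untreated EAE, where edgeR called 0 and 0, and 8 and 8 of the other pathway genes, where edgeR called 3 and 1. The cause was not tested. Adjusting for the replicate number, a replicate block called 0 members in all 3 comparisons and 3 other pathway genes in treated against untreated EAE. On only the 2 groups compared, an alternative chosen after seeing the data, the block called 1 member (Asns) and 9 other pathway genes in EAE against naive, and 0 and 1 in treated against untreated EAE. Without the filter on low counts 2 other pathway genes were called in treated against untreated EAE.

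Leaving out 1 library at a time gave 0 to 1 members and 1 to 5 other pathway genes called in EAE against naive. The members' median log2 fold change then ran from -0.10 to -0.05 in EAE against naive, from 0.06 to 0.14 in treated against untreated EAE and from -0.01 to 0.05 in treated EAE against naive. It was -0.05 without EAE replicate 1 and -0.06 without naive replicate 1 in the first, 0.06 without EAE replicate 1 or treated replicate 3 in the second, and -0.01 without naive replicate 2 in the third. The 1 member was Asns, without treated replicate 3, and that setting gave the 5 other pathway genes, while 1 was left without EAE replicate 2 or 3 or naive replicate 1 or 2. With counts thinned to the smallest library it was 0.08 in treated against untreated EAE. Over all alternatives the adjusted p of Calr in EAE against naive ran from 0.00603 to 0.261, that of Hsp90b1 from 0.00186 to 0.247 and that of Sel1l from 0.00188 to 0.26, each past the threshold with DESeq2 alone, while Chac1 in treated against untreated EAE ran from 0.000569 to 0.225. Over all genes, the calls that stand beside the members' counts moved as well: 184 in EAE against naive, but 2 (without naive replicate 1) to 261 on leaving out a library, 726 with the block on 2 groups and 1042 with DESeq2, and 41 in treated against untreated EAE, but 4 to 38 on leaving out a library, 3 with only the 2 groups compared and 690 with DESeq2. In treated EAE against naive DESeq2 called 3, and edgeR 0. No scaling moved the median of all genes by 0.1 or more. Depth limits Trib3 and Cth most, at 128 counts or fewer in every library.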

Other observations

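Ratios within a library do not depend on the scaling between libraries. These genes were chosen after their values were seen, and the ratios are given with no test. Calr over Hspa5 was 1.52, 1.57 and 1.56 in treated EAE, 1.27, 1.25 and 1.28 in EAE, and 1.5, 1.5 and 1.55 in naive libraries, so that the EAE libraries stood apart and below the other 6. Hsp90b1 over Hspa5 was 1.59, 1.65 and 1.64 in treated EAE, 1.38, 1.32 and 1.43 in EAE, and 1.54, 1.47 and 1.81 in naive libraries. For Canx over Hspa5 the EAE values (1.62, 1.61 and 1.53) reached into the naive ones (1.66, 1.62 and 2) and lay below those of treated EAE (1.79, 1.87 and 1.79). Chac1 over Atf4 was 0.0789, 0.0766 and 0.0618 in treated EAE, 0.0553, 0.0508 and 0.0479 in EAE, and 0.0657, 0.0755 and 0.0643 in naive libraries. Asns over Atf4 was 0.953, 0.947 and 0.682 in treated EAE, 0.807, 0.791 and 0.721 in EAE, and 0.881, 1 and 0.829 in naive libraries, so that EAE libraries overlapped the treated ones and lay below the naive ones. CPM ratios between genes are not per length, and only their differences between libraries can be read.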
